A study of Saccharomyces cerevisiae with 20 samples.

Results

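The 10 genes described here are the mating-type specific genes of *Saccharomyces cerevisiae*, taken by name from the 6921 genes listed in the RNA-Seq tables. They were MFA1, MFA2, STE2, STE6, BAR1, AGA2, ASG7 and AFB1, listed as a-specific, and STE3 and MF(ALPHA)1, listed as alpha-specific. They were picked by name and not by a threshold on expression, but earlier results of these data were known. All 10 had enough reads to be tested in each of the 8 comparisons. RNA was sequenced from W303 yeast lacking Tup1, Sds3, Xbp1 or Isw2 (Δtup1, Δsds3, Δxbp1 and Δisw2) and from wild type (WT), with 2 libraries in each of 10 groups. Every deletion had been made by putting an antibiotic resistance marker in place of the gene in a W303 RAD5+ parent. Cultures of 25 mL rich glucose medium (YPD) at 30 °C were collected at stationary phase (ST, 3 days of growth) and at diauxic shift (DS, 2 hours after glucose was no longer detected). Poly-A RNA was measured from whole cultures, so that less transcript in every cell and fewer cells with the transcript cannot be told apart.

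Haploid yeast exist as a cells and alpha cells, and each type makes a pheromone and carries the receptor for the pheromone of the other. MFA1 and MFA2 encode a-factor, the exporter Ste6 releases it, and Ste3 is its receptor on alpha cells. MF(ALPHA)1 encodes alpha-factor, Ste2 is its receptor on a cells, and the secreted protease Bar1 degrades it. Aga2 is the adhesive subunit of the a-cell agglutinin and binds Sag1 on alpha cells. Asg7 acts on the G protein subunit Ste4. In alpha cells, the alpha2 repressor and Mcm1 bind an operator upstream of a-specific genes and bring in the corepressor Ssn6-Tup1, while in a cells Mcm1 activates the same genes. The alpha1 protein with Mcm1 activates alpha-specific genes. Sds3 is a subunit of the Rpd3L histone deacetylase, Xbp1 a repressor that binds DNA, and Isw2 a chromatin remodeler. The RefSeq annotation describes AFB1 as an a-factor blocker specific to alpha cells and activated by Mcm1 with alpha1, against its place among the a-specific genes in the list. By annotation, 7 of the members are therefore a-specific and 3 alpha-specific, and the genes are grouped in that way below.

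In the R64 build, MFA1 (YDR461W) lies on chrIV:1385176-1385286 (+), MFA2 (YNL145W) lies on chrXIV:352414-352530 (+), STE2 (YFL026W) lies on chrVI:82580-83875 (+), STE6 (YKL209C) lies on chrXI:42423-46295 (-), BAR1 (YIL015W) lies on chrIX:322342-324105 (+). AGA2 (YGL032C) lies on chrVII:436570-436833 (-), ASG7 (YJL170C) lies on chrX:101150-101779 (-), AFB1 (YLR040C) lies on chrXII:228908-229582 (-), STE3 (YKL178C) lies on chrXI:113215-114627 (-), MF(ALPHA)1 (YPL187W) lies on chrXVI:193648-194145 (+). These are the coding regions on the strand given in brackets, and no other gene with a position in the annotation overlaps them. An overlap of AFB1 with a dubious open reading frame, which the annotation notes, is described below.

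The 600 bases upstream of each start codon were searched on both strands for the alpha2-Mcm1 operator, and the matches are shown because they were found in the a-specific members. The pattern has CATGT and ACATG at its ends and CC and GG inside, with 5 free bases after CATGT, 6 between CC and GG and 6 or 5 before ACATG, and at most 2 of its 14 fixed bases could mismatch. The gap of 5 before ACATG was added after the sequences had been seen. Each match is written 5′ to 3′ on the strand of its gene, with the fixed bases that match in capitals, from the S288C sequence of RefSeq build R64, and W303 may differ from it.
MFA1 (chrIV:1384942-1384972): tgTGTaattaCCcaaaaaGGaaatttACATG
MFA2 (chrXIV:352163-352193): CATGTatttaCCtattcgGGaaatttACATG
STE2 (chrVI:82351-82381): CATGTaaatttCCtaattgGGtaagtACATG
STE6 (chrXI:46477-46507): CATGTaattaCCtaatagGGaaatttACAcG
BAR1 (chrIX:322078-322107): CATGTaattaCCgtaaaaGGaaattACATG
AGA2 (chrVII:437102-437131): CATGTaatttCCgaatacGGtaattACAcG
ASG7 (chrX:101905-101935): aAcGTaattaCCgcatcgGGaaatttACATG
All 7 genes annotated as a-specific held a match, beginning between 156 bases (ASG7) and 298 bases (AGA2) upstream of the start codon. AFB1, STE3 and MF(ALPHA)1 held none. Over all 5999 promoters of this length, 28 (0.467%) held a match, of which 4 matched every fixed base. These 4 were the promoters of MFA2, STE2 and BAR1 and that of GYP8, the gene numbered next to STE2, which was picked out after the search. Windows were counted gene by gene, so a site shared by neighbouring genes, as may hold for STE2 and GYP8, counts for each of them. The core of the pheromone response element bound by Ste12, TGAAACA, was in the windows of all 7 a-specific genes and of AFB1, against 14.6% of all promoters, and in neither of the other members. MFA2, STE2, BAR1 and AGA2 held 2 copies of it, and MFA1, STE6, ASG7 and AFB1 held 1.

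**Figure D1:**
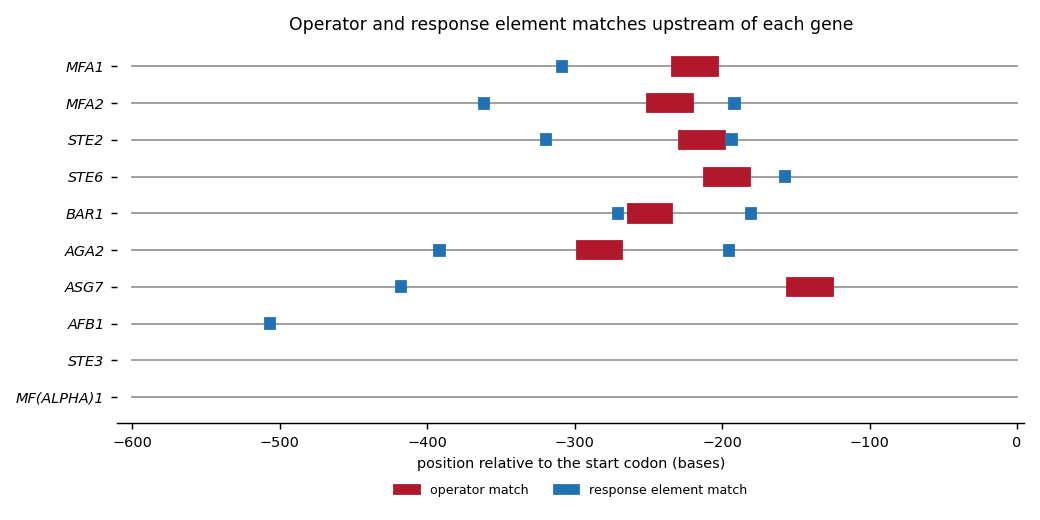
Matches to the operator (red) and to the core of the pheromone response element (blue) in the 600 bases upstream of each start codon, with the position in bases on the horizontal axis and a gene in each row. The operator lies between 298 and 156 bases upstream in 7 genes, and AFB1, STE3 and MF(ALPHA)1 have no operator match.

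The depth and the labels were checked before the members were compared. Libraries held 20963633 to 32558227 reads on genes at diauxic shift and 9994448 to 28421881 in library A at stationary phase, but 2543155 to 4424289 in library B at stationary phase, where library B of each deletion also carries another strain number than library A. The deleted gene had 0 to 8 reads in its own libraries and at least 90 in all others. The mating type is not given in the sources used here. HMRA1, onto which reads of the a1 gene fall because the build holds the alpha cassette at MAT, had 127 to 4444 reads in all 20 libraries. HMLALPHA2, the copy of the alpha2 gene that the tables list, had 0 to 2 reads in the 12 libraries with a value, and MATALPHA1, MATALPHA2 and HMLALPHA1 were not listed. How reads that fit several copies were counted is not given, so these low reads do not show whether alpha2 was transcribed. The a-specific genes were read in every library. Of the alpha-cell markers, MF(ALPHA)2 lay between 0.217 and 5.57 CPM (reads scaled to a common library size by TMM) and SAG1, the alpha-cell agglutinin, between 26.4 and 254. The 2 Δsds3 libraries at diauxic shift stood far apart, with 37.1% of genes at least 2-fold different between them against 6.72% between the WT libraries, and HMRA1 had 1261 and 153 normalized counts there, against 4058 and 3344 in WT.

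Per kilobase of coding length, the members spanned a wide range in WT. At stationary phase, MFA2 had 1986 ± 316 CPM per kilobase, MFA1 1517 ± 7.17 and AGA2 741 ± 128 (SD, n = 2), and the remaining members lay between 8.89 (STE6) and 38.2 (AFB1). At diauxic shift, the same genes led with 3327 ± 1008, 1263 ± 229 and 449 ± 129, and the others lay between 9.01 (STE6) and 45.5 (STE2). The a-factor and agglutinin genes were thus the most abundant members in both phases. The alpha-specific STE3 and MF(ALPHA)1 were listed in every library, at 10.5 ± 0.49 and 13.7 ± 4.81 CPM per kilobase in WT at stationary phase and 15.4 ± 2.12 and 10.6 ± 0.44 at diauxic shift. BAR1, with 12.4 ± 2.12 at stationary phase, overlapped MF(ALPHA)1, and its libraries lay just above those of STE3.

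Across the 10 groups, 9 of the 10 members were lowest in Δtup1 at stationary phase, and STE3 was lowest in Δsds3 at stationary phase. How often Δtup1 at stationary phase was the lowest group over all genes was not counted. The span between the highest and the lowest group was widest for AGA2, 9.54-fold, with 20.5 ± 4.01 CPM in Δtup1 at stationary phase and 196 ± 33.7 CPM in WT at stationary phase. It was narrowest for MFA1, 2.71-fold. The highest group differed between genes, with MFA1, AFB1 and STE3 highest in Δisw2 at diauxic shift, STE2 and BAR1 in Δsds3 at diauxic shift, ASG7 in Δxbp1 at diauxic shift, MFA2 in Δtup1 at diauxic shift, STE6 in Δsds3 at stationary phase, MF(ALPHA)1 in Δisw2 at stationary phase and AGA2 in WT at stationary phase. Most neighbours in these orders overlapped. For MFA2, the first 7 groups, between 442 ± 40.9 and 285 ± 35.7 CPM, each overlapped the next, while Δtup1 at stationary phase, with 87.1 ± 25.8, lay apart from the group above it. Δtup1 at stationary phase was also clear of its neighbour for MFA1, STE2, STE6, BAR1, AGA2, AFB1 and MF(ALPHA)1, but not for ASG7 or STE3.

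**Figure D2:**
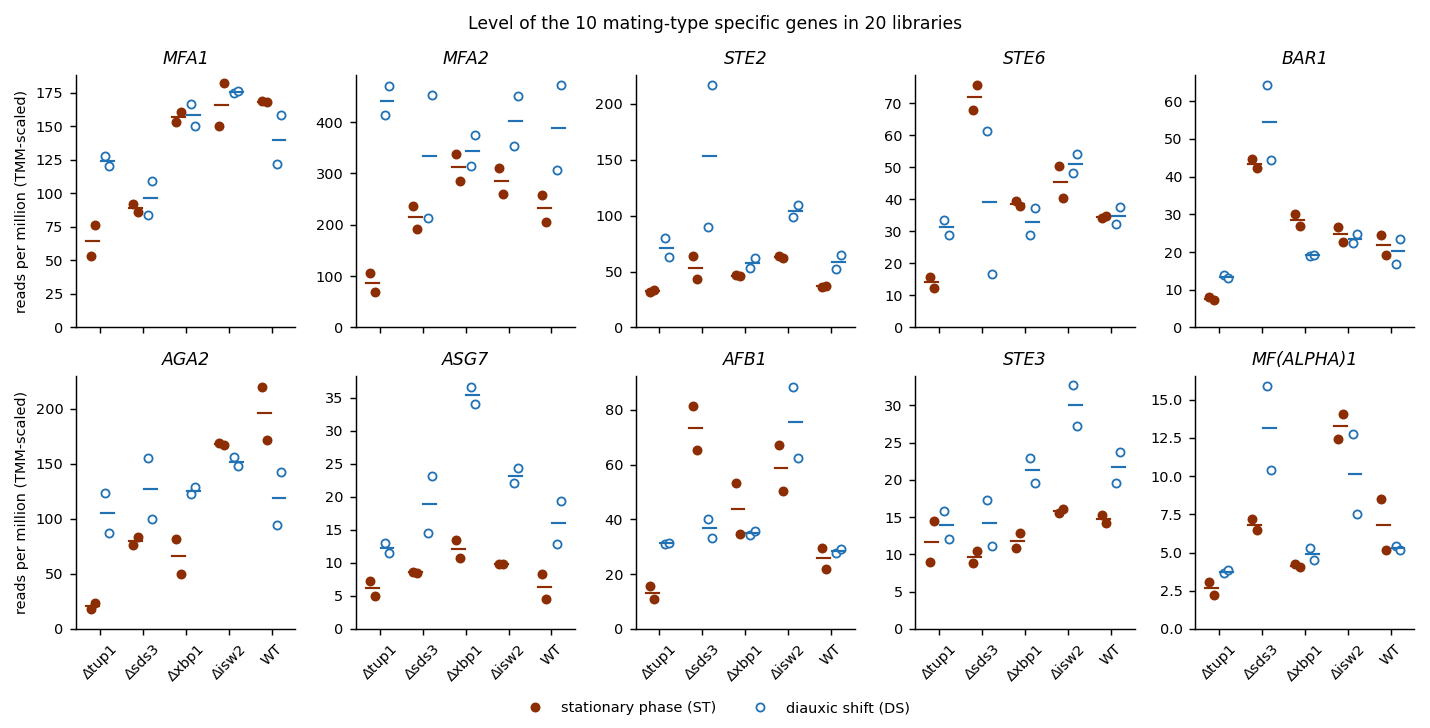
CPM after joint TMM scaling (vertical axis, linear, from 0) for each member in the 4 deletions and WT, with stationary phase in filled brown points left of diauxic shift in open blue points. Each point is a library and each bar the mean of 2. Δtup1 at stationary phase is the lowest group for 9 of the genes (not counted over all genes), and AGA2 spans 9.54-fold over the groups.

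The first question was how loss of Tup1, a corepressor recruited to a-specific genes in alpha cells, changed these transcripts. At stationary phase, 7 of the 10 members fell in Δtup1 and none rose. Of all genes tested, 49.7% were called in this comparison, 24.0% as lower and 25.7% as higher, and the median change was -1.29 over the members and 0.00 over all genes (log2). A gene was called at an adjusted p-value under 0.05 (limma with Benjamini-Hochberg adjustment over all genes tested) and a change of at least 1.5-fold. Of the genes annotated as a-specific, 5 of 7 fell, and of the alpha-specific ones 2 of 3. Values below are normalized counts, with library A before library B, and they are scaled within each table, so that the shared WT libraries read differently from deletion to deletion.

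AGA2 fell furthest. It had 154 and 206 normalized counts in Δtup1, against 1868 and 1527 in WT. Both Δtup1 libraries lay far below both WT libraries, a 9.44-fold drop (log2 fold change -3.24, standard error 0.23, adjusted p = 1.7e-06 by limma), and the adjusted p stayed between 1.7e-33 and 8.3e-06 over the 11 alternative fits. AGA1, the anchor to which Aga2 is bound, had 424 and 295 normalized counts in Δtup1 against 448 and 341 in WT, and the groups overlapped (log2 fold change -0.15). Without WT library A its value was 0.05 and without Δtup1 library B 0.12.

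Both a-factor genes fell. MFA1 had 465 and 673 normalized counts in Δtup1, against 1438 and 1491 in WT, and MFA2 had 916 and 609, against 2201 and 1832. The drops were 2.61-fold and 2.69-fold (log2 fold change -1.39 and -1.43, adjusted p = 4.7e-04 and 5.4e-04 by limma). The groups did not overlap, nor did those of 76.8% of all genes tested. STE6, the a-factor exporter, had 138 and 108 normalized counts in Δtup1 and 289.8 and 309 in WT, a 2.44-fold drop (adjusted p = 0.0012 by limma). These transcripts of a-factor production and export were thus lower in both Δtup1 libraries by similar factors.

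On the side of alpha-factor sensing, the protease and the receptor differed. BAR1 had 69.1 and 63.8 normalized counts in Δtup1, against 209 and 171 in WT, a 2.81-fold drop (adjusted p = 9.0e-04 by limma). STE2 had 277 and 299.6 in Δtup1, against 308 and 331 in WT, and its change of -0.15 on the log2 scale did not pass the test (standard error 0.22, adjusted p = 0.59 by limma). ASG7 did not pass the test either, with 63.1 and 44.2 in Δtup1 and 71.0 and 39.7 in WT, where the deletion libraries lay inside the range of the WT libraries (log2 fold change -0.01, standard error 0.38). Leaving out WT library A moved ASG7 to 0.40 and leaving out Δtup1 library B to 0.24, neither of them called.

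Among the alpha-specific members, MF(ALPHA)1 had 26.9 and 19.6 normalized counts in Δtup1 against 72.5 and 45.6 in WT, a 2.44-fold drop (adjusted p = 0.019 by limma). AFB1 had 137 and 95.8 in Δtup1 against 253 and 194 in WT, a 1.93-fold drop (adjusted p = 0.014 by limma). Both calls were lost without WT library A, with log2 changes of -0.96 (adjusted p = 0.26 by limma) for MF(ALPHA)1 and -0.76 (adjusted p = 0.15) for AFB1. STE3 had 77.9 and 128 in Δtup1 and 129.9 and 127 in WT, so that only library A was lower, and without Δtup1 library B the change of -0.71 was called (adjusted p = 0.038 by limma). The alpha-cell agglutinin gene SAG1 fell as well, with 269 and 233 normalized counts in Δtup1 and 1287 and 1330 in WT (log2 fold change -2.38, adjusted p = 6.2e-06 by limma). MF(ALPHA)2, a minor alpha-factor gene, had 9 reads and 1 read in Δtup1 against 116 and 23 in WT, and was called lower on the normalized counts (adjusted p = 0.0011 by limma).

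**Figure D3:**
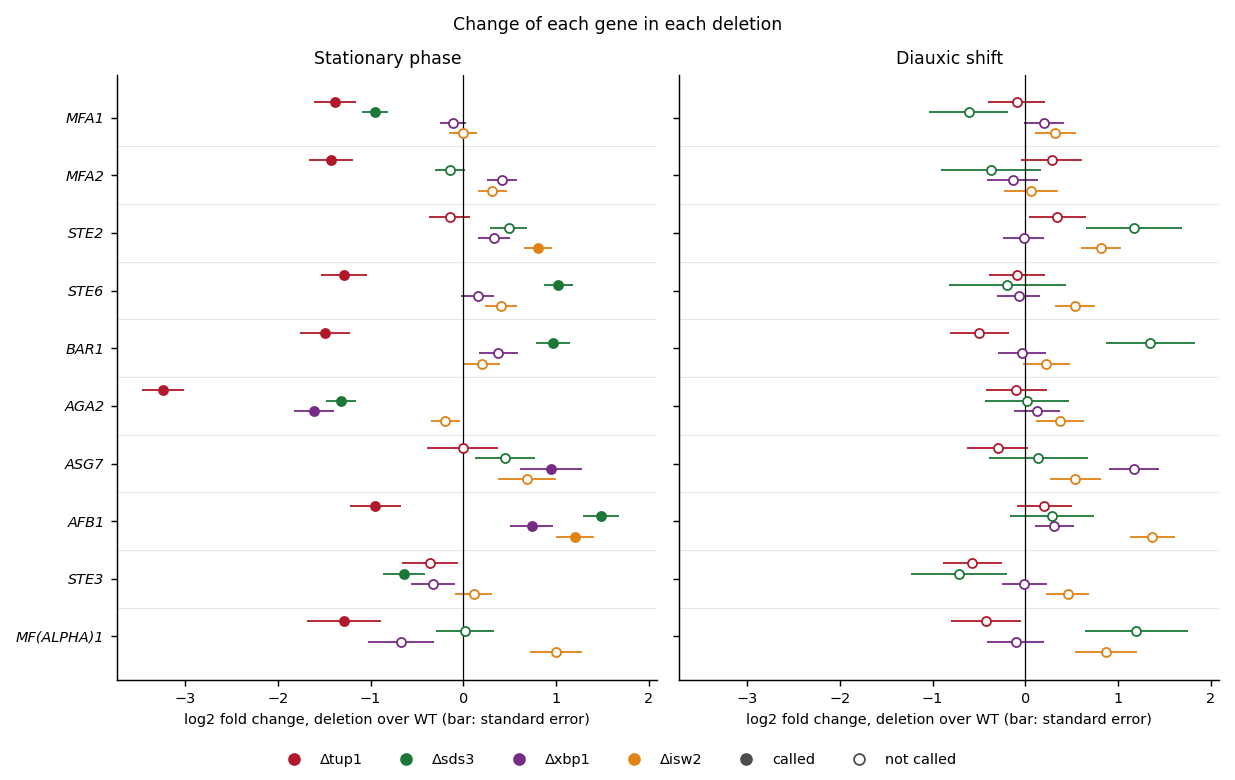
Log2 fold change of each deletion over WT (horizontal axis, bar: standard error) for each member at stationary phase (left) and diauxic shift (right), with called genes filled. At stationary phase, 7 members of Δtup1, 6 of Δsds3, 3 of Δxbp1 and 2 of Δisw2 are filled, and at diauxic shift none is.

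At diauxic shift, none of the 10 members was called in Δtup1, although 20.1% of all genes were (13.8% as higher and 6.27% as lower). No member reached an unadjusted p-value under 0.05 in limma, against 2100 of all 6295 genes tested. No member was called by edgeR or DESeq2 on the recovered reads either. The log2 changes ran from -0.57 for STE3 to 0.35 for STE2. AGA2 had 3375 and 2301 normalized counts in Δtup1, against 2418 and 3665 in WT, and the groups overlapped (log2 fold change -0.10, standard error 0.32). Its change was 0.20 without WT library B and 0.18 without Δtup1 library B. MFA2 had 11316 and 12465 in Δtup1 and 7833 and 12142 in WT, so that WT library B lay inside the range of the deletion.

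Whether the effect of Tup1 loss differed between the phases was tested with limma's interaction term, in which 8.54% of all genes passed an adjusted p-value of 0.05, 5.01% with a lower and 3.54% with a higher effect at stationary phase. AGA2 passed, with a log2 change that was lower at stationary phase than at diauxic shift (difference -3.13, standard error 0.40, adjusted p = 0.0014 by limma). It passed in all 13 alternatives, each single library left out included. MFA2 (-1.69, adjusted p = 0.026) and MFA1 (-1.28, adjusted p = 0.041) passed in limma but lost the call in several of the fits that left out a library, MFA2 without WT library A of diauxic shift, WT library A or B of stationary phase or Δtup1 library B of stationary phase (adjusted p = 0.065 to 0.11). MFA1 lost it without WT library A of diauxic shift, WT library A or B of stationary phase, Δtup1 library A of diauxic shift or Δtup1 library A of stationary phase (adjusted p = 0.1 to 0.14). STE6 (-1.18, adjusted p = 0.057) and AFB1 (-1.14, adjusted p = 0.082) did not pass in limma, and DESeq2 passed STE6 (-1.15, adjusted p = 0.033). In every deletion, both libraries of diauxic shift have the same strain number, while library B of stationary phase has another and is shallower. Phase, strain number and depth can therefore not be fully told apart in the tests of a difference between the phases.

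**Figure D4:**
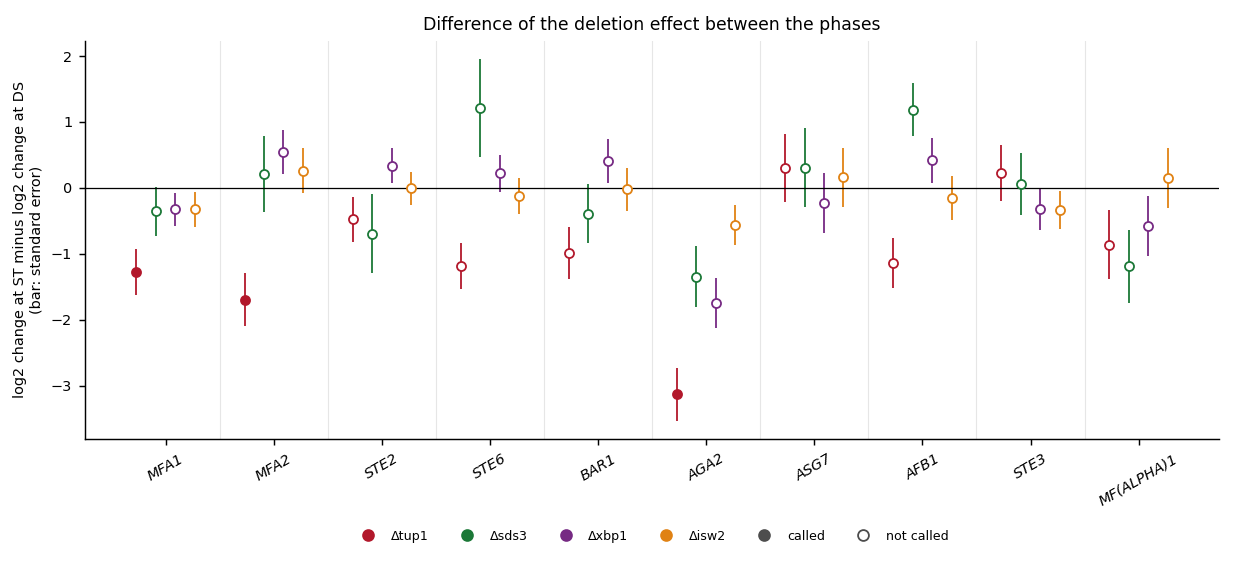
Log2 change at stationary phase minus log2 change at diauxic shift (vertical axis, bar: standard error) for each member and deletion, with filled points past an adjusted p-value of 0.05. AGA2 in Δtup1 lies at -3.13, and the filled points besides it are MFA2 and MFA1 in Δtup1.

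In Δsds3 at stationary phase, 3 members rose and 3 fell. These shares are near those over all genes, of which 53.0% were called, 27.6% as higher and 25.4% as lower. The genes that rose were the exporter gene STE6, the protease gene BAR1 and the a-factor blocker gene AFB1, and those that fell were AGA2, MFA1 and the a-factor receptor gene STE3. The WT libraries are those used for Δtup1, so the comparisons are not independent.

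STE6 had 705 and 809 normalized counts in Δsds3, against 363 and 377 in WT, 2.04-fold higher (adjusted p = 2.8e-04 by limma). BAR1 had 463 and 449.8 in Δsds3 and 261 and 208 in WT, 1.95-fold higher (adjusted p = 0.0011 by limma), and AFB1 had 846 and 697 in Δsds3 and 317 and 237 in WT, 2.79-fold higher (adjusted p = 8.8e-05 by limma). Groups did not overlap for any of these genes, and 82.3% of all genes tested did not overlap in this comparison either. MFA1, in contrast, had 955 and 916 in Δsds3 against 1803 and 1818 in WT, a 1.93-fold drop (adjusted p = 1.9e-04 by limma), while MFA2, with 2460 and 2052 in Δsds3 and 2759 and 2234 in WT, did not pass the test (log2 fold change -0.14, standard error 0.17). Without WT library A the value of MFA2 was 0.01. AGA2 had 789 and 892 in Δsds3 against 2342 and 1862 in WT, a 2.49-fold drop (adjusted p = 6.2e-05 by limma), and AGA1 had 702 and 567 against 561 and 416 (log2 fold change 0.38, adjusted p = 0.10), called only without WT library A (0.60, adjusted p = 0.032).

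The receptor genes were less certain. STE3 had 92.1 and 112 normalized counts in Δsds3 and 163 and 155 in WT, a 1.56-fold drop (adjusted p = 0.032 by limma). The call was lost in DESeq2 (-0.67, adjusted p = 0.066), with TMM scaling (-0.60), with all libraries of the phase in 1 fit (-0.54, adjusted p = 0.092), and without WT library A (adjusted p = 0.091), WT library B (adjusted p = 0.072) or Δsds3 library A (adjusted p = 0.18). STE2 had 667 and 460.5 in Δsds3 and 386 and 404 in WT and missed the fold that a call required (log2 fold change 0.49, adjusted p = 0.05 by limma), but it was called without Δsds3 library B (0.75) and with all libraries of the phase in 1 fit (0.59). ASG7 had 90.0 and 90.5 in Δsds3 against 89.0 and 48.4 in WT, and the change of 0.45 was called only without WT library A (0.89, adjusted p = 0.043 by limma). MF(ALPHA)1 had 74.6 and 69.2 in Δsds3, inside the 90.9 and 55.6 of WT. HMRA1, where the reads of a1 fall, was lower in Δsds3, with 305 and 647 normalized counts against 1347 and 1567 in WT (log2 fold change -1.71, adjusted p = 4.3e-04 by limma), and whether this bears on the members was not tested.

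At diauxic shift, none of the members was called in Δsds3, where 2.79% of all genes were (1.94% as higher and 0.852% as lower). Among the members, 1 had an unadjusted p-value under 0.05 in limma, as did 1487 of all 6340 genes tested. The spread between the Δsds3 libraries was large. STE2 had 2430 and 6019 normalized counts in Δsds3, against 1530 and 1877 in WT, and STE6 had 1667 and 465, against 941 and 1078, so that the 2 libraries of the deletion lay on either side of WT for STE6. BAR1 had 1742 and 1233 in Δsds3 and 489 and 676 in WT, 2.55-fold higher without passing the test (adjusted p = 0.15 by limma). BAR1 was at 1.10 without Δsds3 library A and at 1.60 without library B. Such fits hold none of the spread between the 2 Δsds3 libraries, so their calls are not given here. With all libraries of the phase in 1 limma fit, BAR1, STE2 (1.19, adjusted p = 0.048) and MF(ALPHA)1 (1.22, adjusted p = 0.046) were called. That fit called 1528 of all genes, against 177 in the main fit. MF(ALPHA)1 had 431 and 289 in Δsds3 and 159 and 148 in WT. STE2 was at 1.83 without Δsds3 library A and MF(ALPHA)1 at 1.48 without library B. STE6 was at -1.11 without Δsds3 library A and at 0.73 without library B. None of the members passed the test of the difference between the phases, in which 0.0774% of genes passed (0.0309% with a lower effect). Among the members, 2 had an unadjusted p-value under 0.05 in limma, as did 586 of all 6463 genes tested. No member passed in edgeR or DESeq2. Fits without a Δsds3 library of diauxic shift keep 1 library in that group, and members passing in them are not counted here. The value for AGA2 was -1.35 (adjusted p = 0.46 by limma), and it was -1.68 without Δsds3 library B of diauxic shift.

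In Δxbp1 at stationary phase, AGA2 was the only member that fell, and ASG7 and AFB1 rose, where 23.9% of all genes were called, 12.3% as higher and 11.5% as lower. AGA2 had 637 and 395 normalized counts in Δxbp1, against 1720 and 1368 in WT, a 3.05-fold drop (log2 fold change -1.61, standard error 0.21, adjusted p = 1.8e-04 by limma). This call held in all 11 alternatives. AGA1 had 632 and 395 in Δxbp1 and 412 and 306 in WT, with overlapping groups (log2 fold change 0.49), and was called without WT library A (0.71) or Δxbp1 library B (0.83). Among the other a-specific genes none was called lower. MFA1 had 1196 and 1268 in Δxbp1 and 1325 and 1336 in WT (log2 fold change -0.11), and MFA2 had 2635 and 2256 against 2026 and 1641 (0.42, adjusted p = 0.074 by limma).

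AFB1 had 415 and 273 normalized counts in Δxbp1 and 233 and 174 in WT, 1.67-fold higher (adjusted p = 0.033 by limma), and ASG7 had 104 and 84.3, against 65.4 and 35.5, 1.93-fold higher (adjusted p = 0.049 by limma). ASG7 missed the threshold in 6 of 11 alternatives, edgeR (0.84, adjusted p = 0.058) and DESeq2 (0.86, adjusted p = 0.11) among them, and without WT library B its change was 0.51 and without Δxbp1 library A 0.79. AFB1 missed it with all libraries of the phase in 1 fit (adjusted p = 0.06), without WT library B (0.53) and without Δxbp1 library A (0.44). The groups did not overlap for any of the 10 members, of which 3 were called, and with 2 libraries a group 66.7% of all genes tested did not overlap either. At diauxic shift, no member was called, where 0.465% of all genes were (0.432% as higher). Among the members, 1 had an unadjusted p-value under 0.05 in limma, as did 470 of all 6243 genes tested. ASG7, with 929 and 869 in Δxbp1 against 321 and 489.8 in WT, was 2.26-fold higher (log2 fold change 1.18, adjusted p = 0.19 by limma), and DESeq2 on the recovered reads called it (adjusted p = 0.014), as did limma without WT library B (1.48, adjusted p = 0.0058). The other changes at diauxic shift lay between -0.14 (MFA2) and 0.31 (AFB1), and MFA2 was at 0.18 without WT library B.

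The difference between the phases in Δxbp1 did not pass for any member, with 0.646% of all genes passing (0.331% with a lower effect). Among the members, 1 had an unadjusted p-value under 0.05 in limma, as did 930 of all 6347 genes tested. For AGA2 the difference was -1.75 (standard error 0.37, adjusted p = 0.067 by limma). AGA2 had 3091 and 3295 normalized counts in Δxbp1 at diauxic shift, against 2371 and 3605 in WT, so the groups overlapped there. DESeq2 passed this difference (-1.66, adjusted p = 0.0019), and so did limma without WT library B of diauxic shift (-2.05, adjusted p = 0.007).

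In Δisw2 at stationary phase, 8 of the 10 members had a positive log2 change, as did 2973 of all 5953 genes tested, and 2 members were called. The median change was 0.36 over the members and -0.0003 over all genes. These values share the WT libraries, and the genes are not replicates of each other. STE2 and AFB1 rose, and no member fell, where 1.92% of all genes were called and 1.21% as higher. STE2 had 515 and 509 normalized counts in Δisw2, against 285 and 301 in WT, 1.74-fold higher (log2 fold change 0.80, standard error 0.15, adjusted p = 0.029 by limma). AFB1 had 542 and 410.3 in Δisw2 and 235 and 177 in WT, 2.31-fold higher (log2 fold change 1.21, standard error 0.20, adjusted p = 0.015 by limma). Both calls were lost with all libraries of the phase in 1 fit (adjusted p = 0.068 for STE2 and 0.064 for AFB1), without Δisw2 library A (0.16 and 0.094) and without Δisw2 library B (0.23 and 0.069), while the size of the changes stayed between 0.76 and 0.84 for STE2 and between 1.00 and 1.41 for AFB1.

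MF(ALPHA)1 had 99.9 and 115 normalized counts in Δisw2 and 67.3 and 41.5 in WT at stationary phase, 2.01-fold higher without passing the test (adjusted p = 0.11 by limma), and it was called without WT library A (1.35, adjusted p = 0.0017). ASG7 had 78.6 and 79.9 against 65.9 and 36.1 and was called only without WT library A (1.11, adjusted p = 0.034 by limma). AGA2 had 1359 and 1353 in Δisw2 against 1733 and 1389 in WT, a log2 difference of -0.19 (standard error 0.15, adjusted p = 0.63 by limma). MFA1 had 1209 and 1481 in Δisw2 and 1334 and 1356 in WT, and the groups overlapped. Its change of -0.01 was 0.14 without Δisw2 library A and 0.00 without WT library B.

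At diauxic shift, all 10 members had a positive log2 change in Δisw2, from 0.06 (MFA2) to 1.37 (AFB1), with a median of 0.50 beside 0.00 over all genes tested. None was called, where 0.096% of all genes were. An unadjusted p-value under 0.05 in limma was reached by 4 members and by 248 of all 6247 genes tested. The WT libraries are common to all 10 values, and the genes are not replicates of each other. AFB1 had 2346 and 1667 normalized counts in Δisw2, against 737 and 793 in WT, 2.59-fold higher (adjusted p = 0.25 by limma). DESeq2 on the recovered reads called it (adjusted p = 7.3e-04), and so did limma without WT library A (adjusted p = 0.013), WT library B (adjusted p = 0.0032) or Δisw2 library B (adjusted p = 0.0071). STE2 had 2632 and 2928 in Δisw2 and 1400 and 1767 in WT (log2 fold change 0.82, adjusted p = 0.71 by limma), and MF(ALPHA)1 had 338 and 201 against 145 and 139 (0.87). MFA2 was at -0.27 without WT library A and at -0.12 without Δisw2 library B. No member passed limma's test of a difference between the phases in Δisw2, in which 0.0% of genes passed, and no member passed in edgeR or DESeq2. No member had an unadjusted p-value under 0.05 in limma, against 258 of all 6362 genes tested. The value for AGA2 was -0.56 (standard error 0.31).

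In WT, stationary phase was set against diauxic shift, where library B of stationary phase held 4424289 reads and the other WT libraries at least 28421881. Depth, or any batch that differs between the phases, cannot be fully told apart from the phase. Of the members, 2 were lower at stationary phase and none higher, where 25.0% of all genes were called. ASG7 averaged 6.40 ± 2.74 CPM at stationary phase and 16.1 ± 4.66 at diauxic shift (SD, n = 2 each), a log2 difference of -1.37 (adjusted p = 0.019 by limma), and STE2 averaged 36.7 ± 0.80 at stationary phase and 58.9 ± 9.0 at diauxic shift (-0.68, adjusted p = 0.05 by limma). ASG7 was not called without WT library B of stationary phase (-0.93, adjusted p = 0.21). STE2 was not called with every gene kept, with a pseudocount of 5, without WT library A or B of stationary phase (-0.65 and -0.71, both at adjusted p = 0.27) or without WT library B of diauxic shift (-0.52).

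The most abundant members went in different directions in WT without being called. AGA2 averaged 196 ± 33.7 CPM at stationary phase and 119 ± 34.1 at diauxic shift (0.73, adjusted p = 0.057 by limma). MFA2 averaged 232 ± 36.9 at stationary phase and 389 ± 118 at diauxic shift (-0.73, adjusted p = 0.065 by limma). DESeq2 called AGA2 (0.73, adjusted p = 0.04) and MFA2 (-0.74, adjusted p = 0.038), and limma called AGA2 without WT library B of diauxic shift (1.03) and MFA2 without WT library A of diauxic shift (-1.04). STE3 (-0.56, adjusted p = 0.13) was called lower without WT library A of diauxic shift (-0.69, adjusted p = 0.049). MFA1 averaged 168 ± 0.80 at stationary phase and 140 ± 25.4 at diauxic shift (0.27, adjusted p = 0.41 by limma). MF(ALPHA)2, which is no member, was higher at stationary phase in WT, with 116 and 23 reads against 15 and 11 at diauxic shift (log2 difference 3.22, adjusted p = 0.0014 by limma).

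The other genes of the mating pathway were counted from fixed lists of 57 annotated genes. Beside each count stands the share of all genes called in that comparison, and a count near it says nothing particular about the list. Among 16 genes of pheromone signalling, 6 fell and 3 rose in Δtup1 at stationary phase, where 24.0% of all genes fell and 25.7% rose. SST2, which turns off signalling downstream of the receptor, had 87.3 and 95.8 normalized counts in Δtup1 against 487 and 533 in WT (log2 fold change -2.47, adjusted p = 9.8e-06 by limma). DIG2, an inhibitor of Ste12, was at -2.17, and FUS3, KSS1, GPA1 and STE12 also fell, while STE4 (0.87), STE7 and MSG5 rose. The list median was -0.19, beside 0.00 over all genes. Of 13 tested genes of agglutination and fusion, 6 fell (KAR4, FIG2, PRM1, PRM2, PRM3 and PRM6) and 3 rose (PRM4 at 1.53, PRM10 and CIK1). PRM6, with 4 and 8 reads in Δtup1 and 253 and 31 in WT, had the lowest value. The call of PRM3 rests on few reads, with 2 reads and 1 read in Δtup1 and 42 and 6 in WT. Of 10 genes that mature the pheromones, STE23 and AXL1, proteases that act on a-factor, fell, and KEX1, a peptidase of alpha-factor processing, rose. Of 8 genes of silencing and switching, SIR2, HO and SWI5 fell and none rose. At diauxic shift, where 20.1% of all genes were called, FUS3, DIG2 and GPA1 fell in Δtup1, and FAR1 and STE4 rose, among the 16 signalling genes.

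In Δsds3 at stationary phase, where 53.0% of all genes were called, 4 of the 16 signalling genes rose (KSS1, STE20, FAR1 and MSG5) and 3 fell (STE7, DIG2 and STE18). FAR1, which arrests the cell cycle in response to pheromone, had 262 and 256 normalized counts in Δsds3 and 103 and 111 in WT (log2 fold change 1.26, adjusted p = 3.6e-04 by limma). Of 14 agglutination and fusion genes, CIK1 (2.79), FUS1 and PRM10 rose and FUS2 (-1.73), PRM2 and PRM6 fell. MF(ALPHA)2 had 16 and 2 reads in Δsds3 and 116 and 23 in WT and was called lower, while SAG1 was not called. In Δxbp1 at stationary phase, where 23.9% of all genes were called, FUS3, the kinase at the end of the pheromone cascade, was 1 of the 2 signalling genes called, with 4273 and 4820 in Δxbp1 and 1783 and 1867 in WT (1.31, adjusted p = 7.9e-05 by limma), and STE18 fell. RCE1, a protease of a-factor maturation, rose in Δxbp1 (1.46), and of 13 tested fusion genes FIG2 and CIK1 rose and PRM1 fell. In Δisw2 at stationary phase, where 1.92% of all genes were called, none of the signalling genes was called, PRM6 rose (1.51) and PRM2 fell (-1.51). Both calls were lost with all libraries of the phase in 1 fit and without Δisw2 library B (1.05 for PRM6), that of PRM2 also without Δisw2 library A (-1.34) and that of PRM6 with every gene kept (adjusted p = 0.051 by limma). Of the 8 silencing and switching genes, 4 rose in Δsds3 (ASH1 at 2.77, HO, SWI5 and SIR3) and SIR1 fell, while RME1 rose in Δxbp1 and ASH1 in Δisw2. HMRA1 and MCM1 were the 2 genes tested among the cassette genes and their regulators, and both fell in Δsds3 and neither was called in the other deletions. In Δtup1 at stationary phase, HMRA1 had 400 and 1360 normalized counts, on either side of the 1075 and 1285 in WT (log2 fold change -0.67). RCE1 also rose in Δsds3. At diauxic shift, PRM10 and STE24 rose and RAM1, SWI5 and ASH1 fell in Δtup1, where 20.1% of all genes were called. In Δsds3, where 2.79% were called, CIK1 rose and PRM4 fell. No gene of these lists was called in Δxbp1 or Δisw2, where 0.465% and 0.096% of all genes were. In WT, where 25.0% of all genes were called between the phases (11.8% as higher and 13.3% as lower), DIG2, STE12 and SST2 of the signalling genes, FIG2, PRM6, FUS2 and PRM1 of the fusion genes, and SWI5 and SIR1 were higher at stationary phase than at diauxic shift. STE14, RAM2 and RCE1 of the maturation genes, PRM4 and ASH1 were lower at stationary phase. PRM10 overlaps another annotated gene, and the part of shared reads was not tested.

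The annotation notes that AFB1 partly overlaps the dubious open reading frame YLR041W, which the tables also list, and lists no other overlap among the members. In Δxbp1 at stationary phase, YLR041W had 70.1 and 49.4 normalized counts, against 121 and 139 in WT (log2 fold change -1.12), while AFB1 was higher. In Δtup1 at stationary phase, YLR041W was lower, as AFB1 was, with 80.6 and 66.3 against 131 and 155 in WT (log2 fold change -0.95, adjusted p = 0.014 by limma). YKL177W, numbered next to STE3, has no position in the annotation used, and it had 45.6 and 31.9 in Δtup1 at stationary phase, against 124 and 145 in WT. It was also lower in Δsds3 at stationary phase (log2 fold change -2.09, adjusted p = 7.2e-05 by limma), where STE3 was called lower. The counting of strands is not given in the sources used here, and the part of shared reads in these values was not tested. For MF(ALPHA)1, 19.5% of 37-base stretches recur within the gene itself and none elsewhere in the genome, and the other members have no repeated stretch.

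Across the 20 libraries, the mean log2 level of the 8 genes listed as a-specific was compared with that of 5628 other genes. The closest were VPS73 (Pearson r = 0.931), YEL028W (0.910), FSH3 (0.885), COG1 (0.880) and ERV15 (0.862), given as a description over libraries that share strains, phases and depth. With the 7 genes annotated as a-specific, 4 of these 5 remained, and RFA3 (0.888) took the place of COG1. The members themselves had correlations with this mean, to which 8 of them contribute, between 0.459 for STE3 and 0.826 for MFA2.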

How the data were processed

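RNA-Seq was done by the authors on 2 libraries for each of 10 groups. They aligned 37-base paired reads with Bowtie2 to sacCer3 and compared groups with DESeq2. The program and strand setting used for counting are not given in the sources used here. The deposited tables, 1 for each deletion and phase, hold the authors' signal, which is the read count of a gene scaled for library size in DESeq2, called normalized count here. The authors' own fold changes and p-values were not used. All values were whole multiples of 1 step per library (100%, tolerance 0.1), which gave back the reads. The columns of a group were not matched to single samples. Library A is the column that ends in 1.

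Each deletion was compared with WT in limma 3.58.1 (R 4.3.3) on log2(normalized count + 1), so that changes of low genes are understated, after filterByExpr of edgeR 4.0.16. Interactions, WT phases and levels used recovered reads scaled by TMM. The alternatives were edgeR, DESeq2 1.42.0, no filter, a pseudocount of 5, TMM, all libraries of a phase in 1 fit, a replicate block and leaving out each library. Scripts were tested on simulated data. With 2 libraries per group, no exact test of a single gene can reach 0.05, and p-values measure the spread between these libraries only, which the study calls biological replicates. The members, lists and tests were chosen with earlier results of these data known. All members are named, and list genes are named where called or where a result turns on them. Depth is given with the results and limits low genes in library B at stationary phase. Sequences are from RefSeq R64.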

Additional observations from a re-analysis of the deposited data

Results flagged for a closer look

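In 3 genes, all a-specific, the effect of Tup1 loss was lower at stationary phase than at diauxic shift by limma's interaction test, in which 8.54% of all genes passed. Phase cannot be fully told apart from the strain number and depth of library B of stationary phase. The difference of the log2 changes was -3.13 for AGA2 (adjusted p = 0.0014), -1.69 for MFA2 (adjusted p = 0.026) and -1.28 for MFA1 (adjusted p = 0.041). AGA2 passed in all 13 alternatives, while MFA2 lost the call in 4 and MFA1 in 5 of those that left out a library. Without the shallow library B of stationary phase, MFA2 lost it for Δtup1 (adjusted p = 0.095) and for WT (adjusted p = 0.065), and MFA1 for WT (adjusted p = 0.12), by limma.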

How the results depend on the processing

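Over 94 results for single genes and 1012 alternative values, 906 kept their direction and side of the threshold, 44 lost a call, 38 gained one and 24 changed sign. In Δtup1, 7 members were called at stationary phase in every fit with all libraries and 0 at diauxic shift in every fit. Fits without a single library leave 1 library in a group, and calls over all genes moved widely between them. In most comparisons, the number of members called changed with the library left out, and those calls are not counted here. At diauxic shift, all libraries of the phase in 1 fit called 3 members in Δsds3, and DESeq2 called 1 in Δxbp1 and 1 in Δisw2. At stationary phase, the fit with all libraries of the phase called 0 in Δisw2. For the difference between phases, DESeq2 called 1 in Δxbp1 and 4 in Δtup1. In WT between phases, DESeq2 called 4, no filter 1 and a pseudocount of 5 called 1. These settings called 1727, 1581 and 1605 of all genes. The replicate block called 1 member in Δxbp1 (ASG7) and 2 in Δisw2 (AFB1, adjusted p = 0.0035, and STE2, adjusted p = 0.013, by limma) at diauxic shift, 3 in Δisw2 at stationary phase (MF(ALPHA)1 added, adjusted p = 0.032) and 1 for the phase difference in Δxbp1 (AGA2). With only 2 pairs, the numbers were not taken as pairing. The correlation of the A minus B differences of the deletion and WT was -0.0185 in Δtup1 at diauxic shift and 0.171 to 0.579 elsewhere.

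Values of single genes that changed sign were uncalled with all libraries. STE6 in Δsds3 at diauxic shift was 0.13 in edgeR and 0.084 in DESeq2, and -1.11 to 0.73 without single libraries. MF(ALPHA)1 in Δsds3 at stationary phase was -0.058 in edgeR and -0.069 in DESeq2, and -0.34 to 0.36 without single libraries. Without single libraries, at stationary phase ASG7 in Δtup1 ran from -0.42 to 0.40, AGA1 in Δtup1 from -0.41 to 0.12, MFA2 in Δsds3 from -0.30 to 0.0085 and MFA1 in Δisw2 from -0.15 to 0.14. At diauxic shift, AGA2 in Δtup1 ran from -0.40 to 0.20, MFA2 in Δxbp1 from -0.45 to 0.18 and MFA2 in Δisw2 from -0.27 to 0.38. In WT between phases, STE6 ran from -0.13 to 0.084, BAR1 from -0.12 to 0.36, AFB1 from -0.38 to 0.046 and MF(ALPHA)1 from -0.048 to 0.66. The cause was not tested.

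Over all genes, calls at diauxic shift in Δtup1 numbered 1264 and 547 with all libraries of the phase in 1 fit, where the median of all genes shifted to -0.14. In Δsds3 they numbered 177, against 807 in DESeq2, 1528 with all libraries of the phase and 997 with the block. In Δxbp1 they numbered 29, against 141, 1 and 162, and in Δisw2 6, against 35 in DESeq2 and 135 with the block. In Δisw2 at stationary phase they numbered 114, against 51 with all libraries of the phase and 297 with the block. For the phase difference they numbered 546 in Δtup1 and 867 in DESeq2, 5 in Δsds3, 110 in DESeq2 and 0 with the block, and 41 in Δxbp1, 271 in DESeq2 and 515 with the block. In Δisw2 they numbered 0 and 2 in DESeq2. Depth limits the low members in library B at stationary phase, where MF(ALPHA)1 had as few as 8 reads.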
